A study of Homo sapiens with 24 samples.

Results

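Genes of the actin cytoskeleton and targets of serum response factor (SRF) were followed in LUHMES aggregates exposed to rotenone. The list holds 41 genes, chosen by name with earlier results of these data known, so no set test was made on it. They are 6 actin isoforms and 35 other genes: SRF, its cofactors MRTFA and MRTFB, and genes for actin binding, focal adhesion and contractile proteins. Of the 41 genes, 40 had a probe on the array and were tested, among 21239 genes tested in all. CNN2 had no probe. Signals of 36 of the 40 genes were well above background on all 24 arrays.

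LUHMES is a conditionally immortalized human mesencephalic cell line that differentiates into neurons with dopaminergic traits. Rotenone is a pesticide that blocks mitochondrial complex I. The cells were grown as 3D aggregates on a gyratory shaker, and exposure began on day 7 of differentiation. There were 4 treatments: DMSO as the vehicle, rotenone at 50 nM for either 12 h or 24 h, and rotenone at 100 nM for 24 h. The DMSO control carried as much DMSO as the 100 nM exposure. Aggregates were collected at the end of exposure (called day 8) or on day 15, after the rotenone was washed out and the aggregates had recovered for 7 days. Each of the 8 groups had 3 arrays, 1 on each of 3 slides. All groups come from 1 cell line and the replicates were separate wells, each on its own slide. The p-values therefore measure the spread between wells together with what remained of slide differences after slide 1 was adjusted as a batch.

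Actin is kept as monomers and filaments. SRF binds DNA at the CArG box, and its cofactors of the MRTF family are held in the cytoplasm by actin monomers, so that assembly of filaments frees them to enter the nucleus and activate muscle and cytoskeletal genes. A separate branch, through the ternary complex factors (TCF), links SRF to immediate early genes such as EGR1. The cytoplasmic actins ACTB and ACTG1 are found in all cells, ACTA1 is the skeletal muscle isoform, ACTC1 the cardiac isoform, and ACTA2 and ACTG2 are the smooth muscle isoforms. Neurons use actin for growth cones, spines and the membrane skeleton of the axon.

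The neuronal label was checked against 15 markers of dopaminergic neurons and of neurons in general. Of these, 13 were well above background on all 3 DMSO arrays of day 8. SLC18A2, the vesicular monoamine transporter, was above background on none of them. The summed signal of the 15 markers lay between 17.1 and 17.6 on the log2 scale in all groups. Signals were added before the log, so bright genes weigh most and a steady sum can cover changes of single markers. Between the days in DMSO 3 of the 15 were called higher and 2 lower, against 5.79% and 6.38% of all genes. Their log2 differences ran from −2.94 to 1.57 over the 15. On day 8 the sum was 17.499, 17.488 and 17.276 on the DMSO arrays of slides 1, 2 and 3. It was lower within each slide in every exposure, at 17.466, 17.467 and 17.210 with 50 nM for 12 h. The sums were 17.30, 17.27 and 17.15 with 50 nM for 24 h and 17.29, 17.20 and 17.19 with 100 nM. Single markers did not share this direction, and 7 of 15 lay above 0 in each exposure. Their median log2 fold changes were −0.04 with 100 nM, −0.15 with 50 nM for 24 h and −0.02 with 50 nM for 12 h. In these exposures 0 of the 15 were called, against 3.45%, 2.8% and 1.75% of all genes. The share of spots well above background was 67.3 to 82.4% on slide 1 and 50.9 to 62.4% on slides 2 and 3, and slide 1 was adjusted as a batch. The paper corrected a batch of arrays that were run at another time and washed differently. Whether slide 1 is that batch is not given by the sample labels. Replicate 3 of 100 nM rotenone on day 15 stood apart from its group, with a residual SD of 0.45 log2 units against 0.20 to 0.31 on the other arrays. RNA was taken from whole aggregates, so fewer cells of a type and less RNA per cell cannot be told apart.

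The CArG box was searched in the 250 bases before each RefSeq transcription start (GRCh38.p14), where its pattern reads the same on both strands. The members that rose on day 8 are shown first. Each line holds the 120 bases before the start, 5′ to 3′ on the gene's strand, with the CArG box in capitals.
ACTA1 (chr1:229434095-229434214, minus strand): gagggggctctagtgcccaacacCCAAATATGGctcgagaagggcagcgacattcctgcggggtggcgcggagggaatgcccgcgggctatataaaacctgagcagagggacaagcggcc
FHL2, first start (chr2:105438514-105438633, minus strand): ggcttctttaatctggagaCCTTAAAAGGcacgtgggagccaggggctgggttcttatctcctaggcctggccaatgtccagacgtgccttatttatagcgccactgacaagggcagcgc
FHL2, downstream start (chr2:105399052-105399171, minus strand): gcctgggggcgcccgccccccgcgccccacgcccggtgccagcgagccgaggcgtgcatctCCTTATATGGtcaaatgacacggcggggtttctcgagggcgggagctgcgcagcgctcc
TGFB1I1 (chr16:31473085-31473204, plus strand): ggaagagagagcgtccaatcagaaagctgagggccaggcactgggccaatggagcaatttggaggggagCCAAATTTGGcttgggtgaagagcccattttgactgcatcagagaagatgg
ZYX (chr7:143381225-143381344, plus strand): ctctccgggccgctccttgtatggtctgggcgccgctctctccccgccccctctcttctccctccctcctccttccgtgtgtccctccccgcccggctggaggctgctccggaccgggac
The box of ACTA1 began 97 bases before the start, that of TGFB1I1 51 bases, and those shown for FHL2 101 and 59 bases before the start. FHL2 had 4 starts in the table. Another start lies close to the first shown and has the same box at 85 bases, and the remaining window had none. TGFB1I1 also had upstream starts, not shown, whose windows held no box. The window of ZYX held no match, which says only that these letters are absent there.

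Other members with a CArG box were not called on day 8. The 3 other actin isoforms and SRF itself among them are shown for comparison.
ACTG1 (chr17:81512800-81512919, minus strand): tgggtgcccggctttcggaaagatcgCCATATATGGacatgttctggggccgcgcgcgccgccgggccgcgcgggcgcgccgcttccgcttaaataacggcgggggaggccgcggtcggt
ACTG2 (chr2:73892888-73893007, plus strand): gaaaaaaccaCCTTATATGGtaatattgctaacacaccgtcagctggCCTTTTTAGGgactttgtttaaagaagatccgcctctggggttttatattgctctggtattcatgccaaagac
ACTC1 (chr15:34795550-34795669, minus strand): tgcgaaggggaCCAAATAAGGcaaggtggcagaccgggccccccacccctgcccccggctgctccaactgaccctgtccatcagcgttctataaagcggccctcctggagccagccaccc
SRF (chr6:43171149-43171268, plus strand): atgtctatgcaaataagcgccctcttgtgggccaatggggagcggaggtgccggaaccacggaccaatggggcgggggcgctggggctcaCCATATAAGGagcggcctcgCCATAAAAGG
The boxes began 94 bases before the start of ACTG1 and 109 bases before that of ACTC1. ACTG2 had boxes at 110 and 73 bases, and SRF at 30 and 10 bases. Boxes not shown began at 94 bases in MYLK and in FLNA, 89 in CNN2, 126 in FHL1, 171 in ACTN1 and 173 in TPM4. ACTC1, SRF, FHL1, ACTN1 and TPM4 also had starts without a box. A gene was counted as having a box when any of its starts had it. Over the listed genes, 13 of 36 with a promoter entry (36.1%) had a box, against 394 of 27305 genes in all (1.44%). By window, the shares were 15 of 77 (19.5%) and 407 of 35116 (1.16%). The list names SRF targets, so its larger share follows in part from how the genes were chosen and is not a result. A match is a description of these letters and not a measured binding site. ACTB, TAGLN, MYL9, PFN2 and CCN1 had no entry.

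On day 8, 4 of the 40 genes rose with 100 nM rotenone and none fell. They were ACTA1 and 3 genes for LIM domain proteins, FHL2, TGFB1I1 and ZYX. A gene was called changed when its fold change was over 1.5 and its Benjamini-Hochberg adjusted p, from limma over all genes, was under 0.05. Of all genes tested, 1.43% rose and 2.02% fell by this rule (3.45% in all). At an adjusted p under 0.05 without the fold limit, 9 of 40 members were higher and none lower, against 4.07% and 5.41% of all genes. Exposure to 50 nM for 24 h raised 2 members (ACTA1 and FHL2), against 1.38% of all genes, and lowered none, against 1.42% (2.8% in all). At any fold, 5 members were higher and 1 lower in that exposure, against 3.66% and 4.36% of all genes. After 12 h of 50 nM, ACTA1 and FHL2 had risen, against 0.829% of all genes, and no member had fallen, against 0.923% (1.75% in all). At any fold it was again 2 members higher and none lower, against 2.66% and 2.85%. The 3 exposures share the DMSO arrays, so they are not independent. Groups did not overlap for 18 of the 40 members with 100 nM, against 28.5% of all genes.

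The actins and the other members did not separate as groups. With 100 nM on day 8 the median log2 fold change was 0.13 over the 6 actins, 0.14 over the 34 other members and −0.02 over all genes. Of the actins 1 was called, and of the others 3. Leaving out 1 array gave medians of 0.03 to 0.16 for the actins and 0.11 to 0.25 for the others, and with processed signals scaled to the 75th percentile they were 0.36 and 0.17. The medians were 0.10 for the actins and 0.18 for the others after 24 h of 50 nM, and 0.22 and 0.07 after 12 h.

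**Figure D1:**
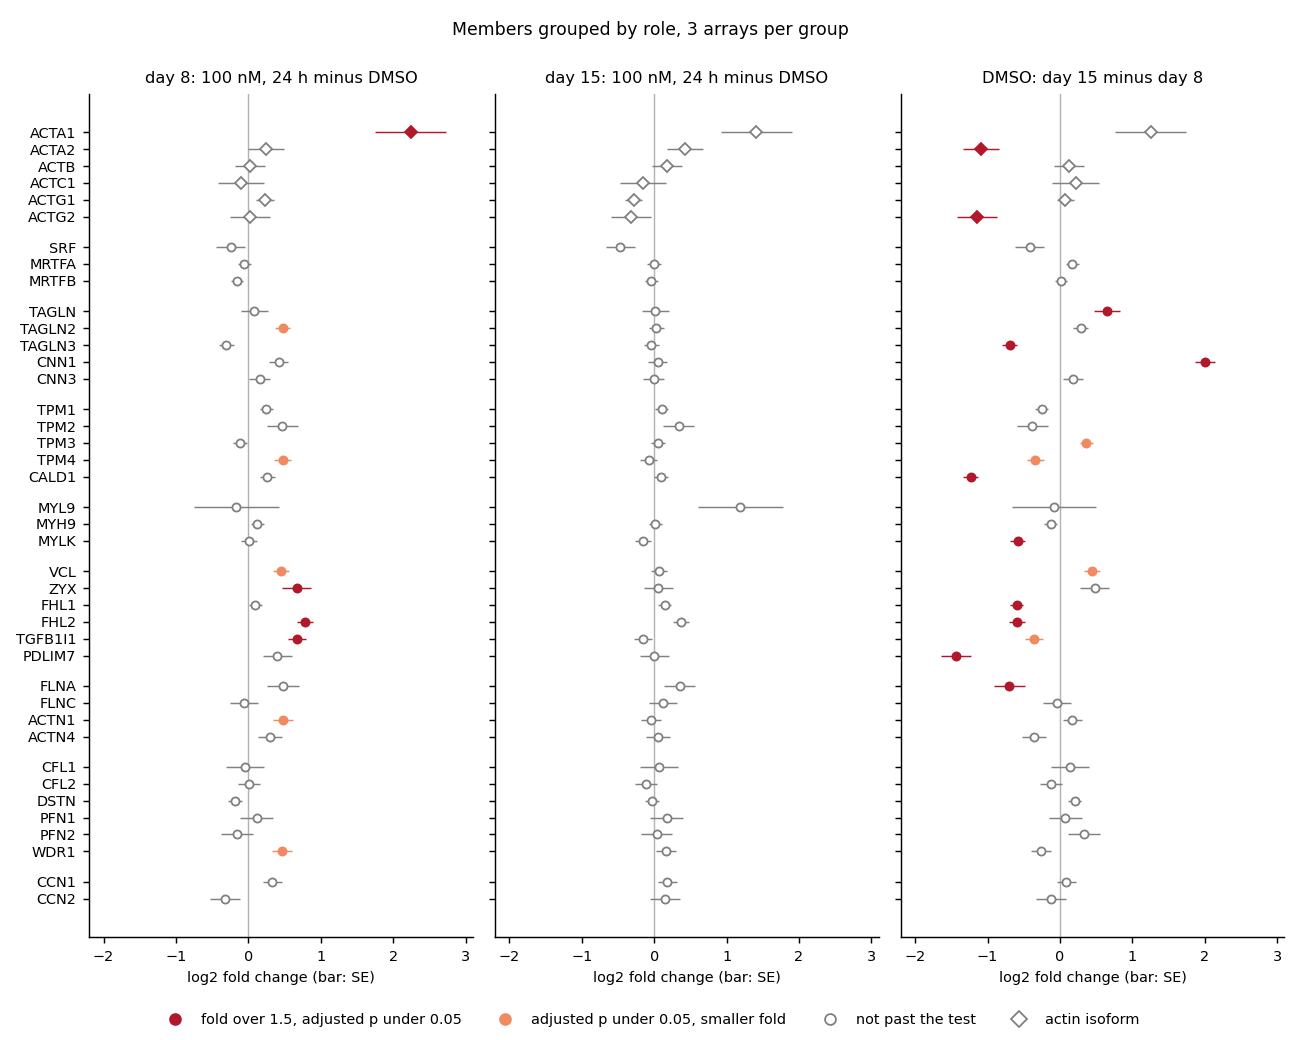
Log2 fold change (x axis, bar: standard error) of each of the 40 tested members (y axis, grouped by role), in 3 comparisons with 3 arrays per group. With 100 nM on day 8, 4 members passed both thresholds and all were higher; on day 15 none passed; between the days in DMSO, 2 were higher and 9 lower.

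Among the actins, ACTA1, the skeletal muscle isoform, had the largest change of all members in each day 8 exposure. Its log2 signals in DMSO were 9.36, 10.23 and 9.29. They were 11.74, 11.84 and 11.42 with 50 nM for 12 h, 12.30, 11.41 and 12.40 with 50 nM for 24 h, and 12.10, 12.26 and 11.23 with 100 nM for 24 h. All 9 rotenone arrays lay above all 3 DMSO arrays. The rise was 4.72-fold with 100 nM (log2 2.24, SE 0.49, 95% interval 1.21 to 3.26, limma adjusted p = 0.00568). It was 5.31-fold with 50 nM for 24 h (interval on the log2 scale 1.38 to 3.44, adjusted p = 0.00403). After 12 h of 50 nM it was 4.11-fold (1.01 to 3.07, adjusted p = 0.0172). Within slides 1, 2 and 3 the log2 difference with 100 nM was 2.74, 2.03 and 1.94.

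Neither dose nor duration separated the exposures for ACTA1. The log2 difference between 100 nM and 50 nM, both for 24 h, was −0.17, with an interval of −1.20 to 0.86. That between 24 h and 12 h of 50 nM was 0.37, with an interval of −0.66 to 1.40. Both intervals leave room for a 1.5-fold difference in either direction. With slides 2 and 3 alone the adjusted p of ACTA1 was 0.0766 with 100 nM, 0.0688 with 50 nM for 24 h and 0.143 with 50 nM for 12 h. The call of the 12 h exposure was also lost without batch correction (0.118), without DMSO replicate 1 (adjusted p = 0.0743), without DMSO replicate 3 (0.0745), and without replicate 1 (0.0552) or 2 (0.0674) of the exposed group.

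The other 5 actins were not called in any comparison with DMSO. The smooth muscle isoform ACTA2 had log2 signals of 4.85, 5.61 and 5.55 in DMSO and 5.49, 5.45 and 6.02 with 50 nM for 12 h. They were 5.91, 6.02 and 6.14 with 50 nM for 24 h and 5.64, 5.75 and 5.33 with 100 nM. The group with 50 nM for 24 h lay above DMSO without overlap, with a log2 difference of 0.69 and an adjusted p of 0.104, while the other exposures overlapped with DMSO. In the authors' own normalized values that difference was 0.68 with an adjusted p of 0.0475. For the enteric smooth muscle isoform ACTG2 the day 8 signals were 5.13, 5.49 and 5.54 in DMSO, 5.32, 5.52 and 5.68 with 50 nM for 12 h, 5.36, 4.42 and 5.28 with 50 nM for 24 h, and 4.91, 5.77 and 5.54 with 100 nM. DMSO overlapped with each exposure.

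The cytoplasmic actins differed little. ACTG1 signals were 13.19, 12.92 and 13.01 in DMSO, 13.48, 13.43 and 13.32 with 50 nM for 12 h, 13.24, 13.39 and 13.30 with 50 nM for 24 h, and 13.52, 13.06 and 13.22 with 100 nM. Both 50 nM groups lay above DMSO without overlap, by 0.37 (adjusted p = 0.0789) and 0.27 (adjusted p = 0.20), and the 100 nM group overlapped with it, with a difference of 0.23 (adjusted p = 0.293). ACTB, often used as a reference gene, read 15.30, 14.92 and 14.67 in DMSO, 15.09, 15.05 and 14.44 with 50 nM for 12 h, 14.57, 15.20 and 14.67 with 50 nM for 24 h, and 14.86, 15.19 and 14.89 with 100 nM. These groups overlapped, with log2 differences from DMSO of −0.10, −0.15 and 0.02. ACTC1, the cardiac isoform, was not well above background on any day 8 array, and its signals there lay between 3.44 and 4.64.

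**Figure D2:**
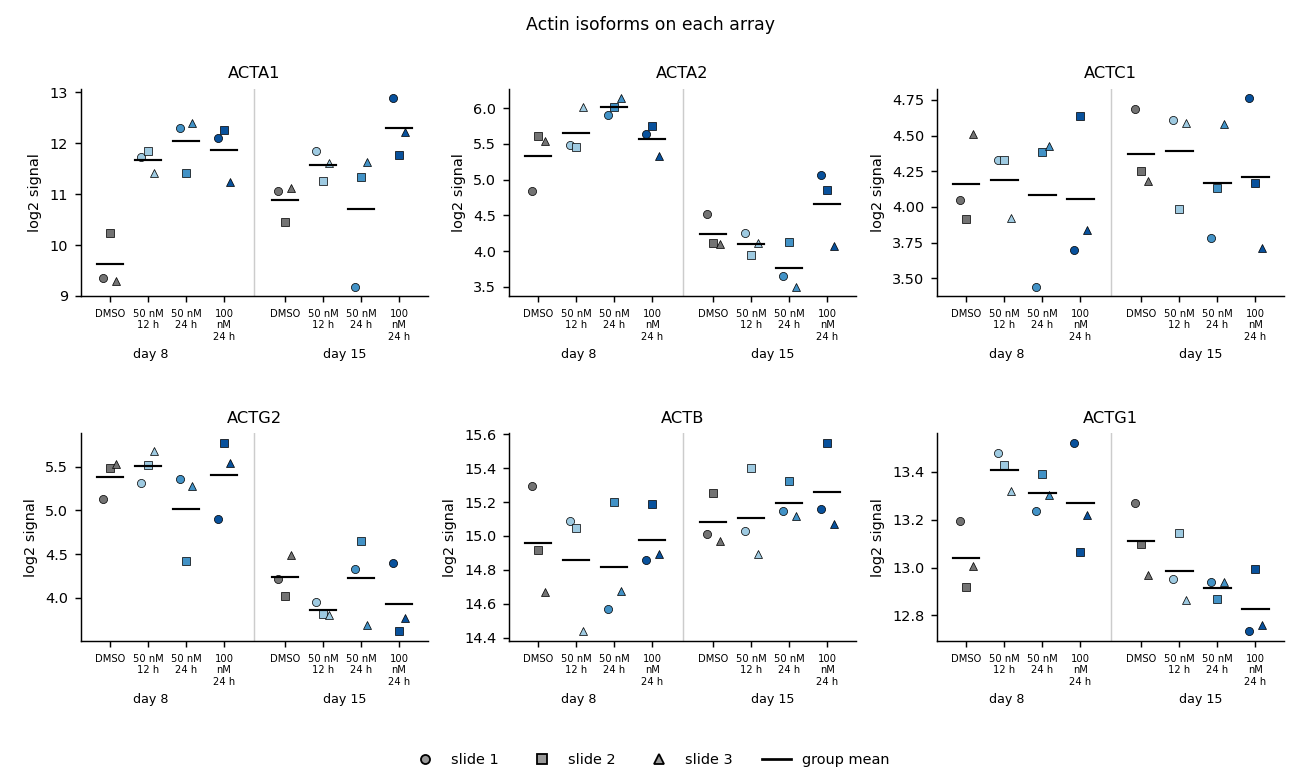
Log2 signal (y axis, scale differs between panels) of the 6 actin isoforms on each array, by treatment and day (x axis), with the slide as marker shape and the group mean as a line. The 9 rotenone arrays of day 8 lie above the 3 DMSO arrays for ACTA1, and ACTA2 and ACTG2 are lower on day 15 than on day 8.

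Coding sequences of the actins are much alike. Probe sequences were not used here, so cross-hybridization between isoforms was not tested.

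SRF and its cofactors were not called in any comparison. SRF gave log2 signals of 6.12, 5.63 and 6.04 in DMSO on day 8, 5.78, 5.69 and 5.84 with 50 nM for 12 h, 5.40, 5.76 and 5.93 with 50 nM for 24 h, and 5.73, 5.69 and 5.64 with 100 nM. All groups overlapped, and the log2 difference with 100 nM was −0.24 (adjusted p = 0.581). MRTFA signals were 8.90, 9.01 and 8.94 in DMSO, 9.15, 9.06 and 8.85 with 50 nM for 12 h, 8.91, 8.80 and 8.78 with 50 nM for 24 h, and 8.88, 8.91 and 8.88 with 100 nM. MRTFB signals were 9.33, 9.36 and 9.33, then 9.47, 9.37 and 9.33, then 9.37, 9.19 and 9.27, and 9.09, 9.21 and 9.25, in the same order of groups. For MRTFB the 100 nM arrays lay below DMSO without overlap, with a log2 difference of −0.16 and an adjusted p of 0.334. These are RNA signals and do not show where the proteins were in the cell.

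The 6 genes for focal adhesion and LIM proteins all had a log2 fold change above 0 with 100 nM on day 8, with a median of 0.56, and 3 of them rose. FHL2, a LIM-only cofactor that binds actin-linked proteins and SRF, had log2 signals of 8.22, 7.81 and 8.04 in DMSO. They were 8.79, 8.65 and 8.73 with 50 nM for 12 h, 8.58, 8.81 and 8.76 with 50 nM for 24 h, and 8.87, 8.78 and 8.78 with 100 nM. All 9 rotenone arrays lay above the 3 DMSO arrays. The rise was 1.72-fold with 100 nM (log2 0.79, SE 0.11, 95% interval 0.56 to 1.02, limma adjusted p = 0.000119). It was 1.62-fold with 50 nM for 24 h (adjusted p = 0.000529) and 1.62-fold with 50 nM for 12 h (adjusted p = 0.000715). When only the compared groups were fitted, the 50 nM values had an adjusted p of 0.0520 and 0.0862. Both FHL2 probes passed the test with 100 nM, with log2 differences of 0.88 and 0.70. The interval for 100 nM against 50 nM was −0.14 to 0.32, and for 24 h against 12 h it was −0.24 to 0.22.

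TGFB1I1, also known as Hic-5, is a paxillin-like adaptor of focal adhesions. Its log2 signals were 7.88, 7.83 and 8.01 in DMSO, 8.37, 8.22 and 8.31 with 50 nM for 12 h, 8.39, 8.55 and 8.49 with 50 nM for 24 h, and 8.59, 8.55 and 8.61 with 100 nM. No rotenone array overlapped with DMSO. With 100 nM the rise was 1.59-fold (log2 0.67, SE 0.12, interval 0.41 to 0.93, adjusted p = 0.00154). For 24 h of 50 nM the fold was 1.48 and so under the limit (adjusted p = 0.00712), and with 50 nM for 12 h the log2 difference was 0.39 (adjusted p = 0.0756). The 100 nM call was lost without batch correction (adjusted p = 0.0534), on slides 2 and 3 alone (0.148) and with a normexp offset of 50 (log2 0.58, fold under 1.5).

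ZYX encodes zyxin, a LIM protein that is recruited to strained actin filaments. Its log2 signals were 9.21, 9.43 and 9.15 in DMSO, 9.89, 9.97 and 9.34 with 50 nM for 12 h, 9.44, 9.76 and 9.48 with 50 nM for 24 h, and 10.07, 10.04 and 9.67 with 100 nM. The 100 nM arrays lay above DMSO without overlap, and the group with 50 nM for 12 h overlapped with it. The rise with 100 nM was 1.59-fold (log2 0.67, SE 0.20, interval 0.25 to 1.08, adjusted p = 0.040). This call was lost when any DMSO array was left out (adjusted p = 0.118, 0.0537 and 0.133 without replicates 1, 2 and 3). It was also lost without replicate 1 (0.152) or 2 (0.123) of the 100 nM group.

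**Figure D3:**
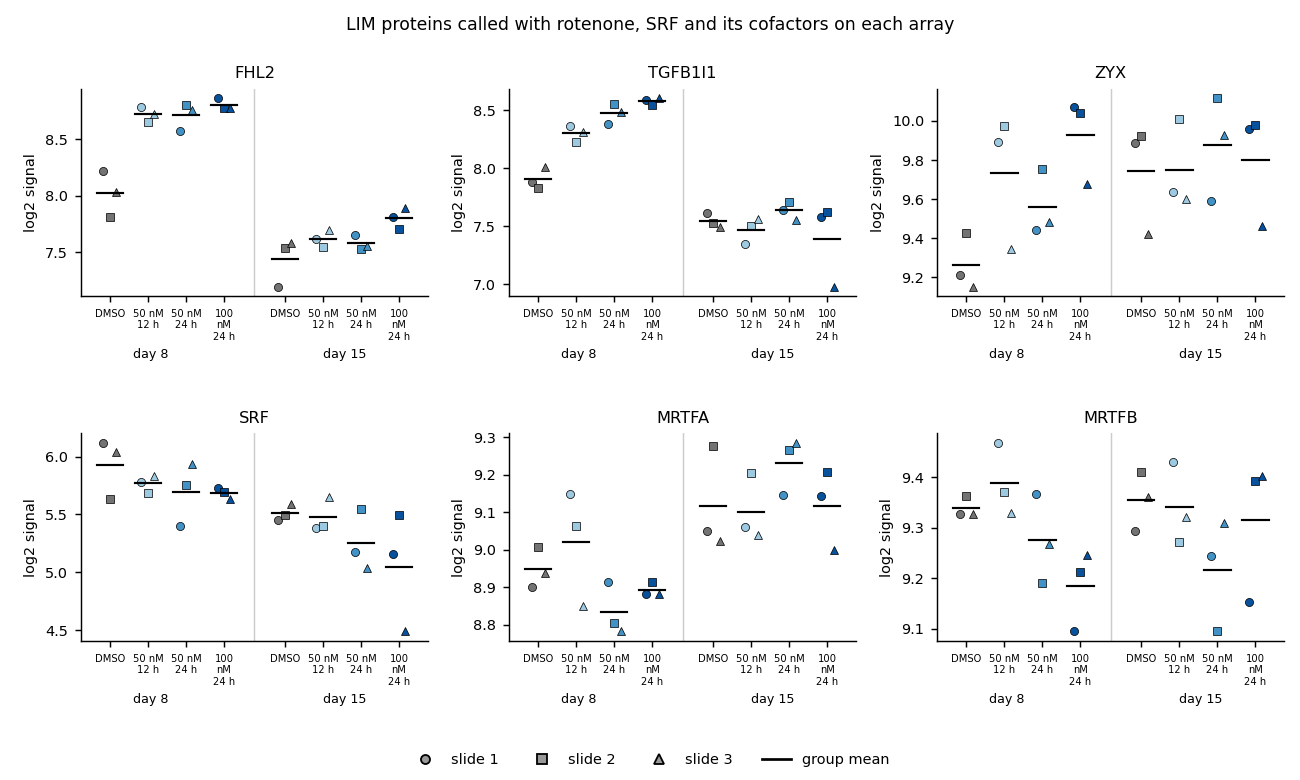
Log2 signal (y axis, scale differs between panels) of FHL2, TGFB1I1, ZYX, SRF, MRTFA and MRTFB on each array, by treatment and day (x axis), with the slide as marker shape and the group mean as a line. The day 8 rotenone arrays of FHL2 and TGFB1I1 lie above all 3 DMSO arrays, and the groups of SRF overlap.

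Among the other members, 5 were higher with 100 nM on day 8 at a fold under 1.5. TAGLN2, a transgelin of non-muscle cells, differed by 0.48 on the log2 scale (adjusted p = 0.00569). VCL encodes vinculin, which couples integrin adhesions to actin, and differed by 0.45 (adjusted p = 0.0114). The non-muscle tropomyosin TPM4 differed by 0.47 (adjusted p = 0.0156), and the crosslinker ACTN1, alpha-actinin, by 0.48 (adjusted p = 0.0318). WDR1, a partner of cofilin in taking filaments apart, differed by 0.46 (adjusted p = 0.0412). After 24 h of 50 nM, ACTN1 was higher by 0.48 (adjusted p = 0.0335), the smooth muscle calponin CNN1 was higher by 0.48 (adjusted p = 0.0304), and TAGLN3, the neuronal transgelin, was lower by a log2 difference of −0.46 (adjusted p = 0.00830).

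With 100 nM the lowest log2 differences among the members were −0.33 for CCN2, a matricellular protein and a common readout of SRF and YAP activity, and −0.30 for TAGLN3, and neither passed the test in that exposure. The 6 genes of monomer and filament turnover (cofilins, destrin, profilins and WDR1) had a median of −0.02, with 3 of 6 above 0, and the 4 crosslinkers had a median of 0.39. Over the 3 exposures of day 8, 11 of 40 members passed the adjusted p in at least 1 exposure and 2 in all 3, against 12.7% and 3.22% of all genes. Over all 6 comparisons with DMSO, 29 members passed in none, against 87.3% of all genes. Of 12 tested members with a CArG box at any start 3 were called on day 8, and of 23 without a box 1 was. Of all tested genes with a promoter entry, 25 of 252 with a box (9.92%) and 730 of 15883 without (4.596%) were called on day 8. Median log2 fold changes of members with and without a box were 0.35 and 0.15 with 100 nM on day 8, −0.11 and 0.05 after recovery from that exposure, and −0.39 and −0.04 between the days in DMSO.

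None of the 40 members was called in the direct comparisons of dose and of duration on day 8 by limma. Between 100 nM and 50 nM for 24 h, 1 member (WDR1, 0.41) had an unadjusted p under 0.05, against 4.17% of all genes, and 0 genes in all were called. Between 24 h and 12 h of 50 nM there were 4 such members, against 10.9% of all genes, and 0.226% of all genes were called. They were TAGLN3 (−0.23), TPM2 (0.46), CALD1 (0.24) and PFN1 (0.52).

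After wash-out and recovery, no member was called on day 15 with any exposure, and 0 of all genes were called by limma either. With 100 nM, 4 of 40 members had an unadjusted p under 0.05, against 7.21% of all genes. With 50 nM for 24 h and for 12 h there were 0 members, against 3.28% and 3.47%. Groups did not overlap for 4 of the 40 with 100 nM, against 7.84% of all genes. The median log2 fold change with 100 nM was 0.01 over the actins, 0.05 over the other members and −0.03 over all genes.

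The 4 members with an unadjusted p under 0.05 were ACTA1, FHL2, ACTG1 and SRF. ACTA1 signals were 11.07, 10.46 and 11.13 in DMSO of day 15, 11.84, 11.27 and 11.61 with 50 nM for 12 h, 9.18, 11.34 and 11.64 with 50 nM for 24 h, and 12.88, 11.77 and 12.23 with 100 nM. The 100 nM arrays lay above DMSO without overlap, and replicate 1 of 50 nM for 24 h lay below every other array of that day. The log2 difference with 100 nM was 1.41 (interval 0.39 to 2.44, adjusted p = 0.628). FHL2 signals were 7.19, 7.53 and 7.58 in DMSO and 7.81, 7.70 and 7.89 with 100 nM, again without overlap. Its log2 difference was 0.37 (interval 0.14 to 0.60, adjusted p = 0.515).

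ACTG1 read 13.27, 13.10 and 12.97 in DMSO of day 15 and 12.73, 12.99 and 12.76 with 100 nM. The groups overlapped, with a log2 difference of −0.28 (adjusted p = 0.649). SRF read 5.45, 5.49 and 5.59 in DMSO and 5.15, 5.49 and 4.49 with 100 nM, where replicate 3 was the lowest of all SRF values (log2 difference −0.47, adjusted p = 0.659). TGFB1I1 read 7.61, 7.53 and 7.49 in DMSO and 7.58, 7.62 and 6.98 with 100 nM, with replicate 3 again lowest. ZYX read 9.89, 9.92 and 9.42 in DMSO and 9.96, 9.98 and 9.46 with 100 nM, and these groups overlapped.

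The other actins and the SRF cofactors overlapped between DMSO and 100 nM on day 15. ACTB read 15.01, 15.26 and 14.97 in DMSO and 15.16, 15.55 and 15.07 with 100 nM. ACTA2 read 4.52, 4.11 and 4.10 in DMSO and 5.07, 4.86 and 4.07 with 100 nM, with 1 and 2 of the 3 arrays well above background. MYL9, the regulatory light chain of smooth muscle myosin, had a log2 difference of 1.19, but was well above background on at most 2 arrays of any group.

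The change with 100 nM on day 15 was then set against that on day 8 as an interaction term. TGFB1I1 was the 1 member of 40 with a called difference, against 1.02% of all genes with a lower value on day 15 and 1.92% in both directions. At any fold the shares of all genes were 1.15% higher and 1.29% lower. Its change was lower on day 15 by 0.82 log2 units (interaction −0.82, SE 0.18, interval −1.19 to −0.46, adjusted p = 0.0149). For 7 other members the unadjusted p was under 0.05, and 14.4% of all genes reached it. All 7 were negative, and they were ACTG1 (−0.51), TPM4 (−0.55), ACTN1 (−0.52), TAGLN2 (−0.45), VCL (−0.39), ZYX (−0.61) and FHL2 (−0.42), with adjusted p of at least 0.10. For ACTA1 the interaction was −0.83, with an interval of −2.28 to 0.63 (adjusted p = 0.662), so a difference between the days was not detectable for this gene.

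The days themselves differed more than the exposures. Between DMSO aggregates of day 15 and day 8, 11 of 40 members were called. Of them 2 rose, against 5.79% of all genes, and 9 fell, against 6.38% (12.2% in all). At any fold 4 were higher and 11 lower, against 10.1% and 13.2%. Groups did not overlap for 22 of the 40 members, against 40% of all genes. Day 15 also carries 7 further days in culture, and proliferation markers fell over that time (6 of 6 called).

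CNN1, the smooth muscle calponin that binds actin and tropomyosin, read 5.17, 4.81 and 4.90 on day 8 and 6.89, 6.90 and 7.10 on day 15. The days did not overlap, and the rise was 4.01-fold (log2 2.0, SE 0.13, adjusted p = 2.11e-09). Its size moved with the background treatment, from 1.11 with a normexp offset of 50 to 3.02 with processed signals, and it was called in both. TAGLN, the smooth muscle transgelin SM22, read 6.25, 6.72 and 6.29 on day 8 and 7.12, 7.18 and 6.92 on day 15, a rise of 1.57-fold (log2 0.65, adjusted p = 0.0135). ACTA1 was higher on day 15 by 1.26 without overlap, and did not pass the test (adjusted p = 0.0726).

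The smooth muscle actins fell. From the day 8 values above, ACTA2 was lower on day 15 (adjusted p = 0.00312), and so was ACTG2, at 4.22, 4.02 and 4.49 (adjusted p = 0.00531). The days did not overlap for either gene. On day 15 each was well above background on 1 of 3 DMSO arrays, so the size of the fall is uncertain. The log2 difference was −1.09 for ACTA2 and −1.14 for ACTG2, from −0.40 and −0.42 with a normexp offset of 50 (fold under 1.5) to −1.73 and −1.76 with processed signals.

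PDLIM7, a PDZ and LIM protein of stress fibers, read 9.82, 9.90 and 9.82 on day 8 and 8.28, 8.58 and 8.38 on day 15. It fell 2.70-fold (log2 −1.43, adjusted p = 3.24e-05). CALD1, caldesmon, which regulates actomyosin, read 9.63, 9.51 and 9.47 and then 8.12, 8.45 and 8.36, a fall of 2.35-fold (log2 −1.23, adjusted p = 4.23e-08). Neither gene overlapped between the days. The crosslinker FLNA, filamin A, read 7.45, 7.69 and 7.70 and then 7.09, 6.96 and 6.71, without overlap (log2 −0.70, adjusted p = 0.0254). The call of FLNA was lost without day 8 replicate 2 (adjusted p = 0.0768) or 3 (0.0787), or without day 15 replicate 2 (0.0542) or 3 (0.0986). TAGLN was lost without day 8 replicate 1 (0.0632) or 3 (0.0577), or day 15 replicate 2 (0.0523).

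Of the other members that fell, TAGLN3 had a log2 difference of −0.69, FHL1 of −0.60, FHL2 of −0.59 and MYLK, myosin light chain kinase, of −0.58. The folds of FHL2 and MYLK were at the limit (both 1.5), and with the replicate number as a block in place of the batch adjustment they were under it (log2 −0.58 and −0.37). VCL and TPM3 were higher at a smaller fold (0.45 and 0.37), and TPM4 and TGFB1I1 lower (−0.34 and −0.36).

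Averages over probes covered unequal changes in genes with several transcripts. There were 60 probes for the 40 members, and 14 members had more than 1 probe. For TPM1, whose transcripts are spliced in a tissue-specific way, probe A_24_P44462 fell by 1.52 between the days in DMSO (adjusted p = 4.58e-09 over all named probes). Probe A_33_P3335966 rose by 0.86 (adjusted p = 0.00513), and A_23_P206018 differed by −0.08. The average over the 3 probes was −0.25. TPM1 was the only member with probes past the test in both directions in this comparison.

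TPM2 had a probe that fell by 1.56, A_23_P216501, and a second, A_33_P3270599, with a log2 difference of 0.80 that did not pass the test (adjusted p = 0.114). For TPM3, A_33_P3223990 rose by 1.497 (adjusted p = 0.00130), and its other 5 probes lay between −0.06 and 0.57. The FLNA probes differed by −1.24 (A_33_P3366120, adjusted p = 7.80e-05) and −0.16 (A_33_P3408711).

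On day 8 with 100 nM rotenone, 14 of 60 probes passed the adjusted p, 13 higher and 1 lower, against 3.71% and 5.06% of all named probes. The TPM1 and TPM2 probes that fell between the days were higher with rotenone, by 0.50 (adjusted p = 0.00509) and 0.54 (adjusted p = 0.0211). The same was seen for the FLNA probe A_33_P3366120, at 0.84 (adjusted p = 0.00701), while the other FLNA probe differed by 0.12. Both comparisons share the DMSO arrays of day 8. The lower probe was A_32_P119197 of TPM3, at −0.68 (adjusted p = 0.00566). Which transcripts these probes read was not tested.

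**Figure D4:**
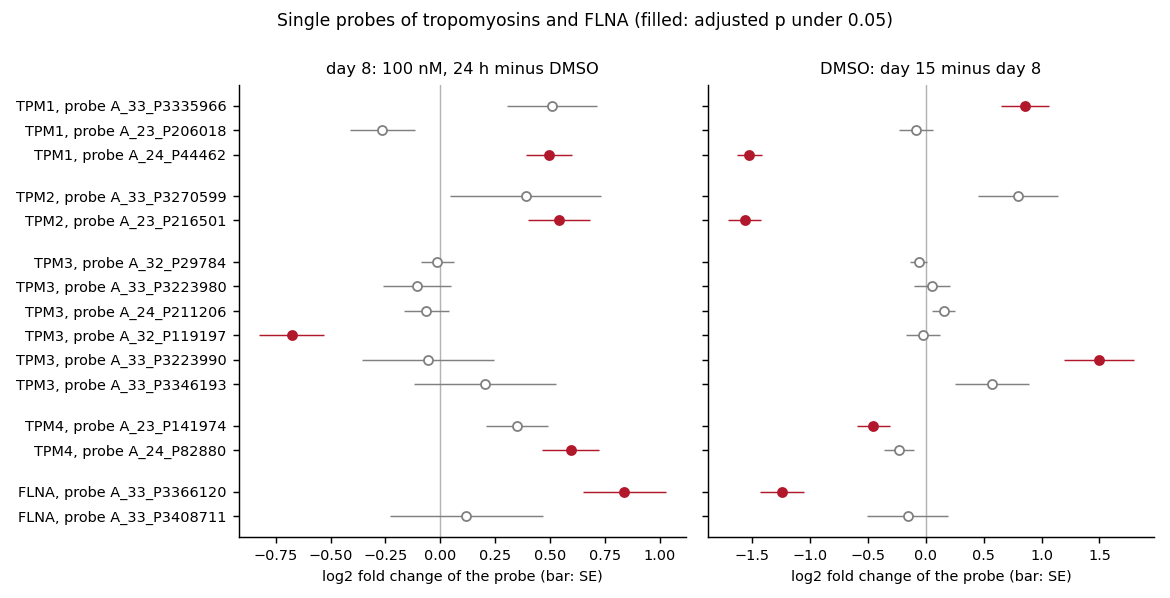
Log2 fold change (x axis, bar: standard error) of each probe of TPM1, TPM2, TPM3, TPM4 and FLNA (y axis) for 100 nM rotenone on day 8 and for the days in DMSO, filled where the adjusted p is under 0.05. Between the days, 1 TPM1 probe lies at −1.52 and another at 0.86.

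ACTA1 is a skeletal muscle gene, and its signal was read beside 11 tested markers of skeletal muscle, which include the myogenic factors MYOD1 and MYOG and sarcomere genes. On the DMSO arrays of day 8, 7 of the 11 were well above background on all 3 arrays, and MB and MYF5 on none. The log2 of their summed signal was 12.29, 12.72 and 12.15 in DMSO of day 8, 12.84, 12.73 and 12.53 with 50 nM for 12 h, 12.58, 11.77 and 12.77 with 50 nM for 24 h, and 12.31, 12.60 and 11.496 with 100 nM. These groups overlapped, and with 100 nM 0 of the 11 were called by limma, 0 had an unadjusted p under 0.05, and 2 were above 0 (median −0.20). Of all 21239 genes 3.45% were called, 20.6% had an unadjusted p under 0.05, and 9879 were above 0. In the 12 h exposure the sum was above DMSO within each slide.

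On day 15 the sums were 14.30, 13.57 and 14.34 in DMSO, 14.44, 14.10 and 14.31 with 50 nM for 12 h, 12.18, 14.18 and 14.48 with 50 nM for 24 h, and 15.01, 14.16 and 14.46 with 100 nM. Replicate 1 of 50 nM for 24 h was the lowest by far, as it was for ACTA1. With 100 nM 0 of 11 markers were called and 11 of 11 lay above 0 (median 0.50, range 0.12 to 1.01), against 9313 of 21239 genes in all. The markers were read on the same arrays, so their signs are not independent. Between the days in DMSO 6 of the 11 rose, against 5.79% of all genes. Among them were the myosin heavy chain MYH8, by 3.82, and the myogenic factor MYF6, by 3.74, while the differences of MYOD1 and MYOG were −0.02 and −0.19.

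Within groups, ACTA1 moved with these markers. In 7 of the 8 groups the 3 arrays had the same order by ACTA1 as by the summed markers. The within-group SD of ACTA1 was 0.638 log2 units, and 0.116 after a common slope on the log2 sum (1.08, SE 0.05), a description over 24 arrays that were normalized together. Replicate 1 of 50 nM for 24 h on day 15, low in both, weighs heavily in this slope. In its group the SD of ACTA1 was 1.34, against 0.22 to 0.56 in the other groups. The slope without that array is not given. The next members by this measure were FLNC (42.1% of the within-group variance), TPM2 (41.3%) and TPM3 (41.2%), against 96.9% for ACTA1. TPM1 followed at 38.2%. FLNC and these tropomyosins are also expressed in muscle.

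With the summed markers as a covariate for all genes, an alternative chosen after these values were seen, ACTA1 differed by 2.52, 2.42 and 1.70 in the day 8 exposures (100 nM, 50 nM for 24 h and for 12 h). On day 15 its difference with 100 nM was then 0.90 (SE 0.11, adjusted p = 0.00342) and was called. That value rests on the same slope, in which replicate 1 of 50 nM for 24 h on day 15 weighs heavily. FHL2 hardly moved, at 0.77, 0.69 and 0.72 on day 8.

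Markers of other cell types were read in the same way on day 8. Of 8 smooth muscle and pericyte markers 6 were well above background on all 3 DMSO arrays, though the smooth muscle myosin MYH11 was on none, and their log2 sums were 10.73 to 10.99 in DMSO and 10.60 to 11.20 with 100 nM. Of 7 cardiac markers 3 were above background on all 3 DMSO arrays, with sums of 9.04 to 9.36 and 8.81 to 9.15. Of 8 fibroblast markers 1 was (COL3A1, FAP and THY1 on no array), with sums of 7.44 to 7.51 and 7.38 to 7.67. Of 6 astrocyte markers 0 were, with GFAP on no array. With 100 nM, 0 markers of these 4 lists were called by limma and 0 had an unadjusted p under 0.05, and the same held for 6 proliferation markers (median −0.33). With 50 nM for 24 h the sums lay above DMSO without overlap for smooth muscle and pericyte markers (11.07 to 11.12) and for fibroblast markers (7.60 to 7.98), with 0 markers of either list called and 1 of each at an unadjusted p under 0.05. Smooth muscle genes among the members did not share a direction in that exposure. ACTA2 and CNN1 had their highest day 8 means there, while ACTG2 and MYL9 had their lowest. MYL9 was not well above background on any day 8 array. The mean of TAGLN lay between that of DMSO and those of the other exposures. The part of these cell types in the results was not tested.

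**Figure D5:**
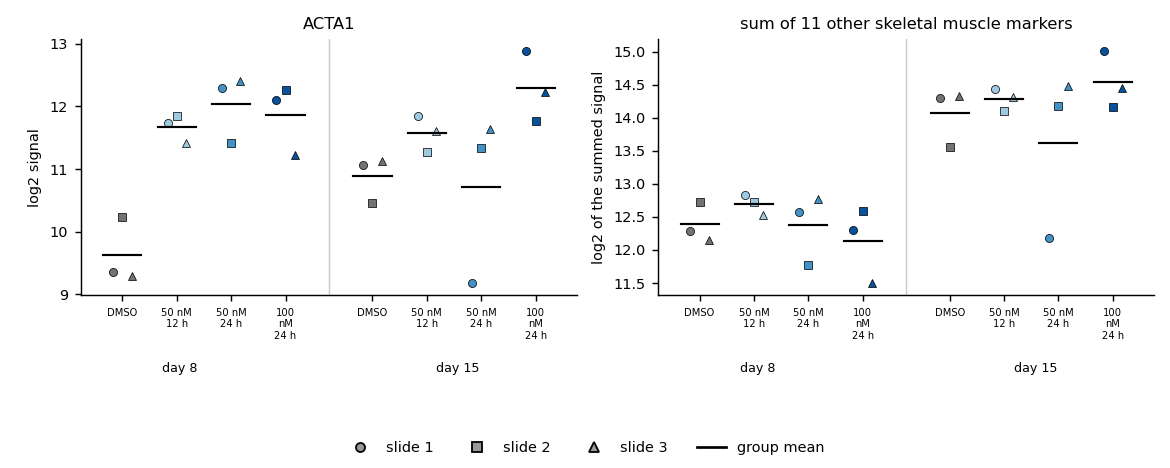
Log2 signal of ACTA1 (left y axis) and log2 of the summed signal of 11 other skeletal muscle markers (right y axis) on each array, by treatment and day (x axis), with the slide as marker shape and the group mean as a line. On day 8, ACTA1 is higher with rotenone while the sums overlap with DMSO; on day 15, replicate 1 of 50 nM for 24 h is lowest in both.

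Further genes of the pathway were taken as lists. Of 22 other SRF and MRTF targets and smooth muscle genes, 1 rose with 100 nM on day 8 and none fell, against 1.43% and 2.02% of all genes. It was LPP, a zyxin family protein (1.79-fold, log2 0.84, SE 0.20, adjusted p = 0.0116). With 50 nM for 24 h none of these 22 rose and 1 fell, against 1.42% of all genes, and the lowest log2 difference was −0.75. With 50 nM for 12 h none of them was called. Of 10 immediate early genes of the TCF branch none was called, and EGR1 had the smallest p and was lower by a log2 difference of −0.52 (adjusted p = 0.0278). EGR1 fell with 50 nM for 24 h (−0.63, adjusted p = 0.0101) and for 12 h (−0.79, adjusted p = 0.00233). In each it was the 1 gene of the 10 called, against 1.42% and 0.923% of all genes that fell.

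None of 9 Arp2/3 genes was called with 100 nM on day 8, with ACTR3 lower by −0.27 (adjusted p = 0.0201). None of 19 capping, severing and sequestering genes was called with 100 nM, with CORO1A, coronin, lower by −0.52 (adjusted p = 0.00255). CORO1A fell with 50 nM for 24 h (−0.66) and 12 h (−0.60), the 1 gene of the 19 called in each. Of all genes 1.42% and 0.923% fell in these exposures. Medians with 100 nM were 0.06, −0.01, −0.09 and −0.04 for these 4 lists in turn, against −0.02 over all genes. On day 15 none of their genes was called.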

How the data were processed

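The authors hybridized total RNA to 1-colour Agilent 8x60K arrays and deposited the scanner files, which hold spot intensity from Feature Extraction (11.5.1.1 on slides 1 and 3, 12.0.0.7 on slide 2). The deposited table of the authors holds normalized log2 values and served as an alternative. The members and lists were chosen with earlier results of these data known. The median intensities were corrected with normexp (offset 0), quantile normalized, adjusted for slide 1 with a ComBat routine that kept the groups, and filtered (1.1 times the 95th percentile of negative controls on at least 3 arrays) in limma 3.58.1 with R 4.3.3. Spots were averaged by probe, and probes by gene through RefSeq accessions (GRCh38.p14). All 24 arrays entered 1 limma fit with Benjamini-Hochberg adjustment over all genes, after the routine was tested on simulated data. Residual degrees of freedom do not count the batch adjustment. Values are given for the actins, SRF and cofactors, members called with rotenone, and the 5 with the largest changes in each direction between the days. Alternatives covered background, scaling, batch, filter, samples, probe choice and leaving out each array. Replicate numbers pair the samples through shared slides. Before the batch adjustment, deviations from the group means correlated in all 84 pairs of same-numbered arrays (0.171 to 0.773). The median was 0.458, against −0.354 for pairs of different numbers. After the adjustment these medians were 0.017 and −0.008, and same-numbered pairs ran from −0.43 to 0.58. The scan name of day 15 DMSO replicate 1 does not name DMSO, and its group rests on its label. The number of arrays limits the precision. Another list of pathway genes, and some values of the other lists, are not reported here.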

Additional observations from a re-analysis of the deposited data

Results flagged for a closer look

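TGFB1I1 was flagged because its response to 100 nM rotenone differed between the days: the change on day 15 minus that on day 8 was −0.82 log2 units (limma adjusted p = 0.0149 for the interaction), from 0.67 on day 8 to −0.15 on day 15. Within slides 1, 2 and 3 the difference was −0.74, −0.63 and −1.11. It did not pass without batch correction (adjusted p = 0.265), on slides 2 and 3 alone (0.349) or with only the compared groups fitted (0.148).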

How the results depend on the processing

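Counts of called members are given as alternative against main value. Counts over all genes, higher and lower in turn, follow those of the named settings. The number of genes tested differs between settings. With 50 nM for 24 h on day 8 the count of 2 became 6 with processed signals scaled to the 75th percentile, 4 with 75th percentile scaling, 4 in the authors' values and 1 on slides 2 and 3. All genes called, 294 and 301, became 523 and 353, 363 and 286, 286 and 299, and 109 and 104. With 100 nM the 4 became 2 without batch correction and 1 on slides 2 and 3, while all genes went from 303 and 430 to 183 and 224, and 118 and 142. With 50 nM for 12 h the 2 became 1 without batch correction, on slides 2 and 3 and with only the compared groups fitted. Over all genes, 176 and 196 became 84 and 86, 48 and 44, and 35 and 33. With 100 nM on day 15 the 0 became 1 with the muscle marker covariate, where 1 of all genes was called higher and 1 lower. Between the days in DMSO the 11 became 7 with an offset of 50, 7 without batch correction and 6 in the authors' values. For all genes, 1230 and 1356 became 773 and 686, 865 and 944, and 1278 and 1291. The interaction count of 1 became 3 with processed signals, 2 with 75th percentile scaling, and 0 without batch correction, on slides 2 and 3 or with only the compared groups. Among all genes, 191 and 216 became 226 and 342, 182 and 225, 43 and 45, 5 and 6, and 59 and 53. Leaving out 1 array gave 3 to 5 members for 100 nM, 2 to 3 for 50 nM for 24 h, 1 to 2 for 50 nM for 12 h, 7 to 10 between the days, 1 to 2 for the interaction and 0 in the other comparisons.

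The replicate block in place of the batch adjustment gave 4, 2 and 2 members on day 8 and 9 between the days, and changed no call but those of FHL2 and MYLK. Over all genes this setting gave 311 higher and 417 lower, 294 and 308, and 181 and 208 on day 8. Between the days it gave 1273 and 1337. Of 413 values of called members under alternatives, 347 kept their call, 66 lost it and 0 reversed. Of 51 uncalled values 28 changed sign under some alternative. Over all genes, processed signals gave 541 higher and 440 lower with 100 nM on day 8 (303 and 430 in the main analysis), and 2273 and 1138 between the days (1230 and 1356), with medians of 0.10 and 0.15. Dim genes (ACTC1, MYL9, and ACTA2 and ACTG2 on day 15) are limited by their signal over background.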
